A study of Mus musculus with 3 samples.

Results

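The Schlafen genes Slfn1, Slfn2, Slfn3, Slfn5 and Slfn8 were followed in intratumoral pmel T cells, which are CD8+ T cells with a transgenic receptor for the melanoma antigen gp100. The 5 genes were chosen by symbol among 33696 genes, of which 11 have a symbol starting with Slfn, and the choice was made because earlier values from these data had shown their levels to differ between treatments. Levels and their relation to interferon-response and quiescence genes are therefore a description, and no test was made on them. Viable cells carrying Thy1.1 and CD8 were taken by sorting from B16F10 melanomas on day 18 after tumor injection. A single library was sequenced for each of 3 treatments: the IL-2/21-Trikine (called Trikine from here on), sIL-2, and the mixture sIL-2 + IL-21. sIL-2 is an engineered IL-2 with raised affinity for IL-2Rβ, and the Trikine joins it to an IL-21 mutant that binds IL-21Rα without signaling. All 3 groups shared the pmel cells, the gp100 preconditioning with 10 nM cytokine, C57BL/6 hosts of 5 to 6 weeks that received 6 Gy of radiation, and transfer on day 5. Hosts then had 4 intraperitoneal injections of 2.5 μg. Per the methods, hosts of T cells cultured in sIL-2 + IL-21 were injected with sIL-2 alone, so that group differed from the sIL-2 group in its preconditioning, while the Trikine was given both *in vitro* and *in vivo*. The number of mice behind a library was not found in the sources used here. There are no replicates, and intervals are exact 95% intervals that cover counting error only.

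Schlafen proteins share a core domain that in several members cuts or binds tRNA, and the longer members carry a helicase-like domain as well. Several are induced by type I interferon. Slfn1 and Slfn2 are short members. Slfn1 holds back thymocyte growth when overexpressed, and T cells without working Slfn2 fail to keep quiescence. Slfn3 is of middle length, and Slfn5 and Slfn8 are long members. In the RefSeq annotation the family sits together on chromosome 11 in the order Slfn5, Slfn9, Slfn8, Slfn10-ps, Slfn2, Slfn1, Slfn4, Slfn3 and Slfn14, with unrelated gene models between some of them.

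The promoters are shown because members that are neighbors on the chromosome differed in how far their level followed interferon-response genes. All 5 members matched the RefSeq promoter table (build GRCm38.p6), Slfn8 with 2 start sites, of which the first is used, and the start of Slfn1 was not found among the GENCODE transcripts used below. Printed here, 5′ to 3′ on the strand of the gene, are the 170 bases before each start, with Slfn9 for comparison. Capitals mark AANNGAAA or GAAANNGAAA on either strand, letters found in the core of interferon-response elements. Every GAAANNGAAA match contains an AANNGAAA match.
Slfn1, + strand, chr11:83116650-83116819: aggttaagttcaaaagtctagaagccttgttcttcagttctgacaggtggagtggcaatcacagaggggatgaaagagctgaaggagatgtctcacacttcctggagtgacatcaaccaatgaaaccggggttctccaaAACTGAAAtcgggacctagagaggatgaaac
Slfn2, + strand, chr11:83064942-83065111: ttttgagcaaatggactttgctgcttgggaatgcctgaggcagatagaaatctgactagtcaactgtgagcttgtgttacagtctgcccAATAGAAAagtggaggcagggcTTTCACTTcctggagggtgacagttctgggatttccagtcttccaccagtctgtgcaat
Slfn3, + strand, chr11:83191160-83191329: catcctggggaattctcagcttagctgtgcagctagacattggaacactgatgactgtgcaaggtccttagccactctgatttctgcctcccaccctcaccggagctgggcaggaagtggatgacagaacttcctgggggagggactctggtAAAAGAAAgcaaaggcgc
Slfn5, + strand, chr11:82951932-82952101: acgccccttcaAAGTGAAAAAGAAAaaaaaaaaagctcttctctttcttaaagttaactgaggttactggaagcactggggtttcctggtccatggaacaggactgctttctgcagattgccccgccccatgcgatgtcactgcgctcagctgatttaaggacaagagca
Slfn8, - strand, chr11:83020811-83020980: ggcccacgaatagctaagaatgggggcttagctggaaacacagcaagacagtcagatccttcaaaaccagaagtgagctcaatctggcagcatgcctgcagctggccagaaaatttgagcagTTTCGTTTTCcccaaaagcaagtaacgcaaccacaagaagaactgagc
Slfn9, - strand, chr11:82991831-82992000: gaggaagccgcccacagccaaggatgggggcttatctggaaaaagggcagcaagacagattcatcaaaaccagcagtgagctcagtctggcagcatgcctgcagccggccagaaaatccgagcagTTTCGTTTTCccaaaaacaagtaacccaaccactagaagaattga

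Within 250 bases before the start, GAAANNGAAA was found for Slfn5, Slfn8 and Slfn9 and not for Slfn1, Slfn2 or Slfn3. The same letters occur in 2.98% of all 32851 promoters in the table, on either strand. The looser AANNGAAA was found for all 5 members and occurs in 21.3% of promoters. The STAT-type motif TTCNNNGAA, present in 7.02% of promoters, was not found for any of these 6 genes. ACTTCCTGG, the longest word that the promoters of Slfn1, Slfn2, Slfn3 and Slfn4 share, occurs in 0.700% of promoters and, in Slfn2, overlaps the end of TTTCACTT. The promoters of Slfn8 and Slfn9 were 79.8% identical, against 42.0% to 49.1% for the other pairs. A match describes letters in a window and does not show a bound site.

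For 4 of the 5 genes the level was highest with sIL-2, lower with Trikine and lowest with sIL-2 + IL-21. A level in CPM is the UMIs of a gene in all kept cells of a library per 1000000 UMIs of that library. UMIs are not scaled to gene length, so levels are compared between libraries and cells and not between genes. Slfn1, a founding member of the family, stood at 164 CPM with sIL-2 (162 to 166), 125 with Trikine (123 to 127) and 71.4 with sIL-2 + IL-21 (70.1 to 72.6). Slfn2, required for T cell quiescence, stood at 342 (339 to 345), 316 (313 to 318) and 219 CPM (217 to 221) in the same order. The Slfn5 level, of a long interferon-inducible member, was 55.8 (54.6 to 57.1), 29.0 (28.2 to 29.8) and 15.1 CPM (14.5 to 15.7). All 3 genes were highest with sIL-2 and lowest with sIL-2 + IL-21, and no neighbors in this order had overlapping intervals, which cover counting error only. For Slfn2 the step from sIL-2 to Trikine was near that of other genes. Its log2 ratio was -0.11, beside a median of -0.08 over all genes with a mean of at least 10 CPM. Slfn8, another long member, took the same order at 41.2 (40.1 to 42.3), 32.0 (31.2 to 32.9) and 18.3 CPM (17.7 to 19.0). Slfn3 was low throughout, at 9.75 (9.22 to 10.3), 9.75 (9.28 to 10.2) and 7.61 CPM (7.19 to 8.03), and its values with sIL-2 and Trikine overlapped. The members' summed level was 613, 511 and 331 CPM.

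**Figure D1:**
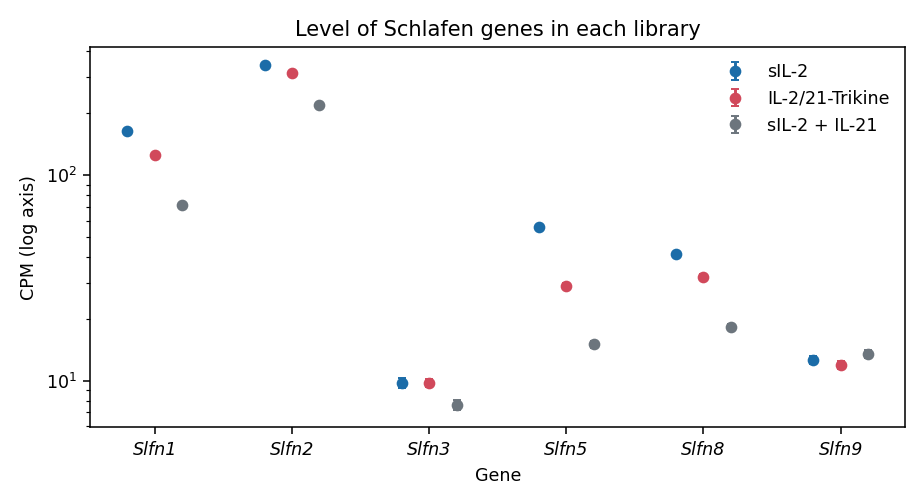
CPM (log axis) of the 5 members and Slfn9 in each of the 3 libraries, with exact 95% Poisson intervals that are mostly narrower than the points. Slfn1, Slfn2, Slfn5 and Slfn8 step down from left to right, Slfn3 is at 9.75, 9.75 and 7.61, and Slfn9 is between 11.9 and 13.5.

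Slfn9 and Slfn10-ps did not share this order. Slfn9 was at 12.6 CPM with sIL-2, 11.9 with Trikine and 13.5 with sIL-2 + IL-21. Slfn10-ps was at 10.2, 7.11 and 8.89. Slfn4, known from myeloid cells, was at 2.04, 0.588 and 0.518 CPM, and a single sIL-2 cell held 45 of its 266 UMIs there. The antisense gene Slfn5os had 6, 4 and 1 UMIs. Slfn14 and Slfnl1 had 0 UMIs, with upper ends of the exact intervals at 0.0283, 0.0221 and 0.0220 CPM. Sequence shared within the family lay away from the transcript ends that this 3′ assay reads: no 90-base window in the last 500 bases of a member's transcript (GENCODE vM21, used for sequence only) recurs in another Slfn transcript. Over whole transcripts the share of such windows was 4.97% for Slfn8, 0.762% for Slfn2, 0.320% for Slfn3 and 0% for Slfn1 and Slfn5.

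The share of cells with at least 1 UMI was taken after thinning each cell to 2000 UMIs, since median depth differed between the libraries. Thinning left out 266 sIL-2, 1775 Trikine and 364 sIL-2 + IL-21 cells that were shallower. For Slfn1 the share was 29.7% (28.7 to 30.8), 23.3% (22.6 to 24.1) and 15.2% (14.5 to 16.0), against 73.6%, 57.7% and 54.5% without thinning. For Slfn5 it was 10.9% (10.2 to 11.6), 6.33% (5.89 to 6.79) and 3.86% (3.48 to 4.27), against 33.6%, 18.0% and 15.5% without thinning. Both genes kept in the shares the order of their levels. Slfn2 was found in 49.7%, 48.0% and 38.8% of thinned cells, and the first pair of shares had overlapping intervals (48.6 to 50.9 and 47.1 to 48.9). Without thinning, its shares were 91.6%, 82.2% and 85.4%, an order that goes against its levels and from which nothing is read. Slfn8 was found in 8.81%, 6.98% and 4.35% of thinned cells and in 39.0%, 26.9% and 23.4% of all cells. Slfn3 was found in 1.89%, 1.65% and 1.41% of thinned cells, with overlapping intervals between neighbors, and in 12.2%, 9.88% and 10.5% of all cells. At least 1 member was detected in 66.8% of thinned sIL-2 cells, 62.1% of Trikine cells and 50.01% of sIL-2 + IL-21 cells.

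Few cells held 10 or more UMIs of myeloid, melanoma or red blood cell markers, and UMIs of the members were found in the barcodes with myeloid markers too. T cell markers were present at 4076, 3613 and 3417 summed CPM, with none of 6 at 0. The 10 myeloid markers summed to 96.2, 121 and 71.3 CPM, of which Ctss alone gave 58.6, 88.7 and 49.4. A Ctss UMI was found in 47.2%, 51.3% and 45.3% of all kept cells. At least 10 UMIs of the 10 markers were held by 37, 73 and 25 cells, and how many reached this number through Ctss was not tested. These 135 cells also held T cell markers, at 3129 CPM against 3677 in the other cells and in 121 of the 135, and their median of 25049 UMIs was above that of each library. Whether they were doublets was not tested. Among them Slfn1 stood at 160 CPM, Slfn2 at 344, Slfn5 at 72.9 and Slfn8 at 37.8, while Slfn4 stood at 29.6. After thinning, 27.1% of them had a Slfn1 UMI (19.7 to 35.7) and 13.2% a Slfn5 UMI (7.87 to 20.3). No cell type in the sort is known to lack these genes, so the part of free RNA in the shares was not tested. Melanoma markers summed to at most 8.82 CPM and B cell markers to at most 2.38. Dendritic and NK cell markers were each at most 0.202 in sum, with 1 of 3 dendritic and 1 of 4 B cell markers at 0, and fibroblast markers at most 0.0600. Red blood cell genes summed to 68.7 CPM with sIL-2 and to at most 0.476 in the other libraries. At least 10 UMIs of them were held by 1 sIL-2 cell and 1 sIL-2 + IL-21 cell. Pairs of libraries shared 18 to 41 cell barcodes. Without cells that held markers of other types, the counts of members in the library comparisons below were the same, at 1, 4 and 4.

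Trikine cells held less Slfn5 than sIL-2 cells, at 0.520 times the level, and differed by less in Slfn1, Slfn8 and Slfn2. Genes with a mean of at least 10 CPM were compared, which took in 4 members and left out Slfn3. The log2 ratio of Trikine over sIL-2 was -0.94 for Slfn5 (-0.997 to -0.892), -0.39 for Slfn1 (-0.42 to -0.37), -0.36 for Slfn8 (-0.42 to -0.31) and -0.11 for Slfn2 (-0.13 to -0.10). With a log2 ratio of 0.5 as the limit, 1 of 4 members was lower, beside 5.41% of 7370 genes. The members' median log2 ratio was -0.38, beside -0.08 over all genes compared. Slfn3 had a log2 ratio of 0.00 (-0.11 to 0.11). That value depended on the weighting of cells, at -0.29 with cells thinned to 2000 UMIs and -0.17 with every cell weighted equally. Of the interferon-response genes, 7 of 15 compared were lower and 0 higher, with Rsad2 at a log2 ratio of -1.03, Ifit1 at -0.92, Ifit3 at -0.66 and Usp18 at -0.60. No gene of 10 in interferon signaling passed the limit. Of 17 quiescence genes, 3 were lower and 0 higher, with S1pr1 at -0.79, Vsir at -0.69, Btg2 at -0.59 and Tob1 at -0.38. Of 20 cycling genes, 13 were higher, beside 2.56% of all genes compared, while 4 of 5 granzymes C to G (median -1.90) and 5 of 10 activation genes were lower.

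Against sIL-2 + IL-21, Trikine cells had more of 4 of 4 members compared. Trikine over sIL-2 + IL-21 gave a log2 ratio of 0.94 for Slfn5 (0.87 to 1.01), 0.81 for Slfn1 (0.77 to 0.84), 0.81 for Slfn8 (0.74 to 0.87) and 0.53 for Slfn2 (0.51 to 0.55). All 4 were past the limit of 0.5, beside 3.18% of 7370 genes that were higher by as much. With every cell weighted equally, Slfn2 was at 0.38 and 3 of 4 members passed. The members' median was 0.81, beside 0.00 over all genes compared. Slfn3 was below the level limit, with a log2 ratio of 0.36 (0.25 to 0.47). All 15 interferon-response genes compared were higher, with Ifit3 at 1.97, Rsad2 at 1.67, Ifit1 at 1.52 and Isg15 at 1.41. Interferon signaling had 2 of 10 higher. The quiescence list had 6 of 17 higher, with Tcf7 at 1.47, Foxp1 at 0.74, Bach2 at 0.73 and Btg1 at 0.65. No cycling gene of 20 passed the limit in either direction. Of the granzymes 5 of 5 were lower (median -2.34, beside 0.00 over all genes compared), and of 10 activation genes 1 was higher and 2 lower. The share of all genes that were lower by as much is not given for this comparison.

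The widest differences lay between the sIL-2 and sIL-2 + IL-21 libraries, from groups that differed, per the methods, in preconditioning. The log2 ratio of sIL-2 over sIL-2 + IL-21 was 1.89 for Slfn5 (1.82 to 1.95), a 3.70-fold difference in level. It was 1.20 for Slfn1 (1.17 to 1.23), 1.17 for Slfn8 (1.11 to 1.23) and 0.64 for Slfn2 (0.62 to 0.66), so that 4 of 4 members were higher, beside 9.89% of 7370 genes. The members' median log2 ratio was 1.19, beside 0.07 over all genes. Slfn3 had a log2 ratio of 0.36 (0.24 to 0.47), against 0.54 with cells thinned to 2000 UMIs and 0.63 with every cell weighted equally. All 15 interferon-response genes compared were again higher, with Rsad2 at 2.70, Ifit3 at 2.63, Ifit1 at 2.44 and Usp18 at 1.97. Of 10 genes of interferon signaling, 3 were higher, among them the transcription factor genes Stat2 at 0.74 and Irf9 at 0.64. Of 17 quiescence genes, 10 were higher, with Tcf7 at 1.48, S1pr1 at 1.19, Vsir at 1.02 and Bach2 at 0.99, and 17 of 20 cycling genes were lower, beside 5.2% of all genes compared. Of the 10 activation genes 6 were higher and of the granzymes C to G 2 of 5 were lower. The 3 comparisons share libraries and are not independent.

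Among single cells, the members separated by how closely they followed interferon-response genes. Cells thinned to 2000 UMIs were placed by their UMIs of 20 interferon-response genes, and the level of each member was then taken from all UMIs of the cells at each step. Slfn5 in sIL-2 cells was at 16.8 CPM with 0 interferon-response UMIs, 56.3 with 3 to 4, 125 with 5 to 9 and 470 with 10 or more. It was higher at every step in every library, and with 10 or more reached 335 CPM in Trikine and 330 in sIL-2 + IL-21 cells, from 9.852 and 8.004 with none. Slfn1 went from 90.2 to 643 CPM with sIL-2, from 76.9 to 522 with Trikine and from 49.99 to 493 with sIL-2 + IL-21. Slfn8 went from 21.7 to 190 CPM, from 20.7 to 145 and from 13.6 to 137 in the same order. Both were higher at every step as well. Slfn2 had the flattest course of the 4 compared members, from 293 to 655, 280 to 623 and 194 to 611 CPM. Its level in the sIL-2 and the sIL-2 + IL-21 library had intervals that did not overlap with no interferon-response UMI (288 to 299 and 191 to 197) and did with 10 or more (634 to 676 and 561 to 665). The last step held 550, 498 and 109 cells.

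**Figure D2:**
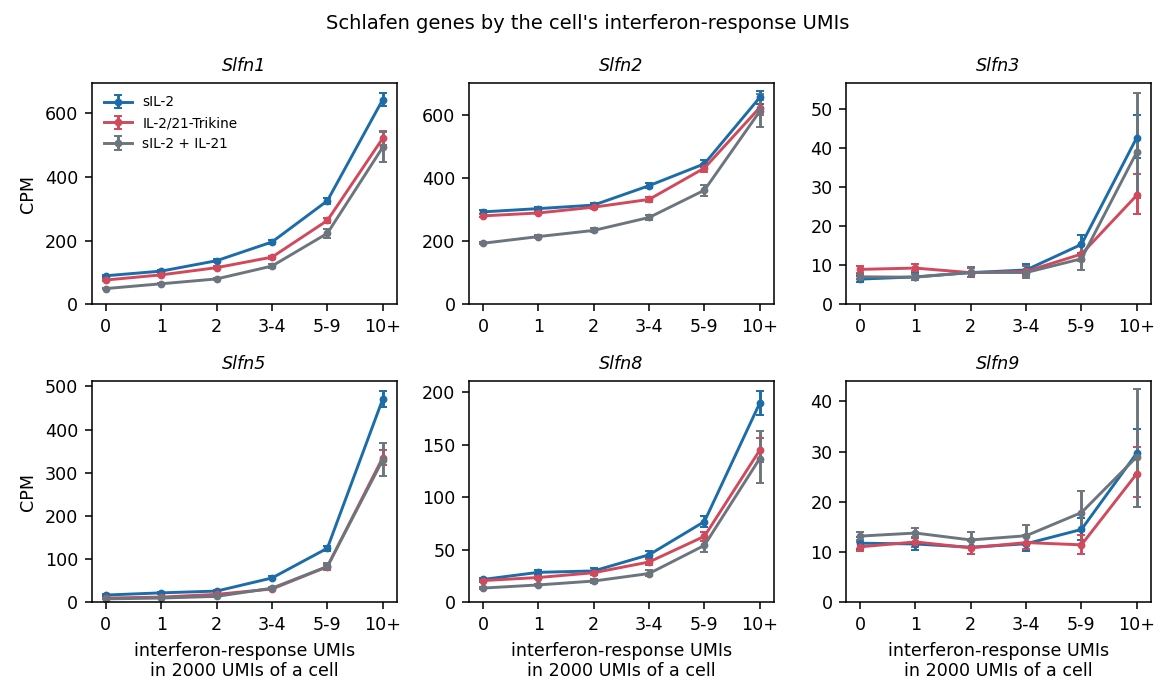
Level (CPM) of the 5 members and Slfn9 in cells with 0, 1, 2, 3 to 4, 5 to 9 and 10 or more interferon-response UMIs among 2000 UMIs, with exact 95% Poisson intervals, 1 line per library. Slfn5 in sIL-2 cells goes from 16.8 to 470, Slfn2 from 293 to 655, and Slfn9 from 11.8 to 29.7, with 14.5 at 5 to 9.

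Slfn9, and Slfn3 outside the sIL-2 library, changed little at up to 4 interferon-response UMIs. Slfn3 lay between 6.49 and 9.32 CPM in all libraries up to 4. In sIL-2 cells it was higher at every step, from 6.49 (5.71 to 7.36) with 0 to 8.83 (7.54 to 10.3) with 3 to 4. In the 3 libraries Slfn3 stood at 15.4, 12.9 and 11.7 CPM with 5 to 9, and at 42.7, 28.0 and 39.0 with 10 or more, the last from 35 UMIs. Slfn9 lay between 10.8 and 13.8 CPM up to 4, and at 29.7, 25.6 and 29.0 with 10 or more. Slfn8 and Slfn9, whose promoter stretches both hold the TTTCGTTTTC printed above, differed in course, the level of Slfn8 being higher at each step than at the one before. Whether these letters bear on either course was not tested.

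Set as a contrast, cells with at least 3 interferon-response UMIs (high) were compared with cells with 0 (low). High cells made up 34.1% of thinned sIL-2, 29.5% of thinned Trikine and 14.5% of thinned sIL-2 + IL-21 cells. In the same order, 29.7%, 31.0% and 23.2% of thinned cells lay within 1 UMI of the limit. The log2 ratio of high over low cells was 3.09, 2.9997 and 2.89 for Slfn5, 1.78, 1.54 and 1.72 for Slfn1, and 1.85, 1.47 and 1.54 for Slfn8. It was 0.59, 0.49 and 0.69 for Slfn2, and for Slfn3, outside the compared set, 1.32, 0.41 and 0.57. Of the 4 compared members, 4, 3 and 4 were higher by the limit, beside 4.79%, 3.64% and 5.55% of 7355 genes. With cells placed by 1000 UMIs in place of 2000, Slfn2 was at 0.37, 0.25 and 0.28 and 3 of 4 members passed in each library. Their median log2 ratios at 2000 UMIs were 1.81, 1.505 and 1.63, beside -0.01, -0.01 and 0.00 over all genes compared. In cells with 0 cycling UMIs, the log2 ratio of Slfn3 was 1.79 (1.36 to 2.25), 1.005 (0.54 to 1.49) and 2.11 (1.45 to 2.79). High cells were also shallower, with a median of 10728, 9162 and 10239 UMIs against 15565, 13093 and 16432 in low cells, and the part of depth in the ratios was not tested.

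Slfn1, Slfn2, Slfn5 and Slfn8 were also higher in cells rich in quiescence genes, whereas the Slfn3 ratios had intervals that held 0 over all cells. Cells with at least 12 UMIs of the 20 quiescence genes among 2000 were set against cells with at most 5, and were shallower, with medians of 9842, 7690 and 7429 against 22243, 16933 and 21564 UMIs. The part of depth was not tested. For Slfn5 the log2 ratio of high over low cells was 1.75 with sIL-2 (1.64 to 1.85), 2.11 with Trikine (1.99 to 2.23) and 2.46 with sIL-2 + IL-21 (2.31 to 2.61). Slfn1 had log2 ratios of 1.21, 1.27 and 1.64, Slfn8 of 0.98, 0.91 and 1.24, and Slfn2 of 0.87, 0.72 and 1.22. All 4 of 4 compared members were higher in each library, beside 16.4%, 16.1% and 21.9% of genes, so that many other genes differed as much. The members' median log2 ratios were 1.10, 1.09 and 1.44, beside 0.03, 0.03 and 0.05. Slfn3 stood at 0.21 (-0.0024 to 0.43), -0.08 (-0.29 to 0.13) and -0.18 (-0.48 to 0.11). Slfn9 was lower in high cells, at -0.58, -0.75 and -0.88. Interferon-response genes were higher in the same cells, 15, 15 and 14 of 15 compared, and 20 of 20 cycling genes were lower in each library, beside 15.4%, 14.1% and 17.9% of genes that were lower. The activation list was mixed and differed between libraries. Of its 10 genes, 3 were higher and 4 lower with sIL-2, and 3 higher and 5 lower with Trikine. With sIL-2 + IL-21, 6 were higher and 1 lower, with a median log2 ratio of 0.70.

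Because the interferon-response and cycling lists differed along with the quiescence list, the quiescence contrast was repeated in cells with no interferon-response UMI and in cells with no cycling UMI. Without interferon-response UMIs, the log2 ratio of Slfn1 was 1.19, 1.05 and 1.35, that of Slfn2 0.85, 0.56 and 1.07, and that of Slfn5 1.502, 1.23 and 1.97 in sIL-2, Trikine and sIL-2 + IL-21 cells. Slfn8 had 0.66, 0.34 and 0.84 there. Without cycling UMIs, Slfn5 had 1.05, 1.36 and 1.47, Slfn1 0.92, 0.98 and 1.27, Slfn8 0.83, 0.80 and 1.15, and Slfn2 0.60, 0.41 and 0.76. Slfn3 stood at 0.34 (-0.08 to 0.78), 1.14 (0.59 to 1.72) and 0.95 (0.28 to 1.63) without cycling UMIs, and at -0.40 (-0.94 to 0.12), -0.22 (-0.67 to 0.21) and -0.51 (-1.09 to 0.03) without interferon-response UMIs. The direction was the same for the other 4 members in each library, while Slfn8 in the first and Slfn2 in the second set of Trikine cells were under the limit of 0.5.

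Cycling cells divided the family. Cells with at least 3 UMIs of 20 cycling genes were set against cells with 0, and made up 17.6%, 30.1% and 38.9% of the thinned cells of the libraries. Slfn5 was lower in cycling cells, with log2 ratios of -1.999 with sIL-2 (-2.12 to -1.88), -2.36 with Trikine (-2.48 to -2.24) and -2.38 with sIL-2 + IL-21 (-2.54 to -2.23). In level, that was 75.9 against 19.0, 50.8 against 9.88 and 30.1 against 5.78 CPM. Slfn1 had log2 ratios of -0.85, -0.99 and -1.05, Slfn2 of -0.70, -0.65 and -0.87, and Slfn8 of -0.68, -0.55 and -0.52. All 4 of 4 compared members were lower in each library, beside 7.35%, 6.15% and 9.48% of genes. In cells with 0 interferon-response UMIs, Slfn8 was at -0.48, -0.10 and -0.40, under the limit in each library, which left 3 of 4. Slfn3 went the other way, at 0.60 (0.40 to 0.80), 1.06 (0.87 to 1.26) and 1.05 (0.80 to 1.30), as did Slfn9 at 0.98, 1.31 and 1.25. Slfn3 stood at 12.4, 13.3 and 9.68 CPM in cycling cells and at 8.17, 6.36 and 4.68 in the others. Cycling cells were deeper, with medians of 25992, 19392 and 22541 UMIs against 11622, 9102 and 10173, and the part of depth was not tested.

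With S and G2/M genes taken apart, a split chosen after values were seen, Slfn5 was lowest in G2/M. Cells with at least 2 UMIs of 1 set and 0 of the other were set against cells with neither. Slfn5 had a log2 ratio of -0.67 in S and -1.496 in G2/M cells with sIL-2, -0.78 and -2.27 with Trikine, and -0.93 and -1.94 with sIL-2 + IL-21, with intervals that did not overlap between S and G2/M in any library. Slfn3 had a log2 ratio of 0.26 in S and 0.32 in G2/M with sIL-2, where both intervals held 0, 0.47 and 0.91 with Trikine, and 0.95 and 0.68 with sIL-2 + IL-21. For Slfn3, S and G2/M intervals overlapped in each library.

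**Figure D3:**
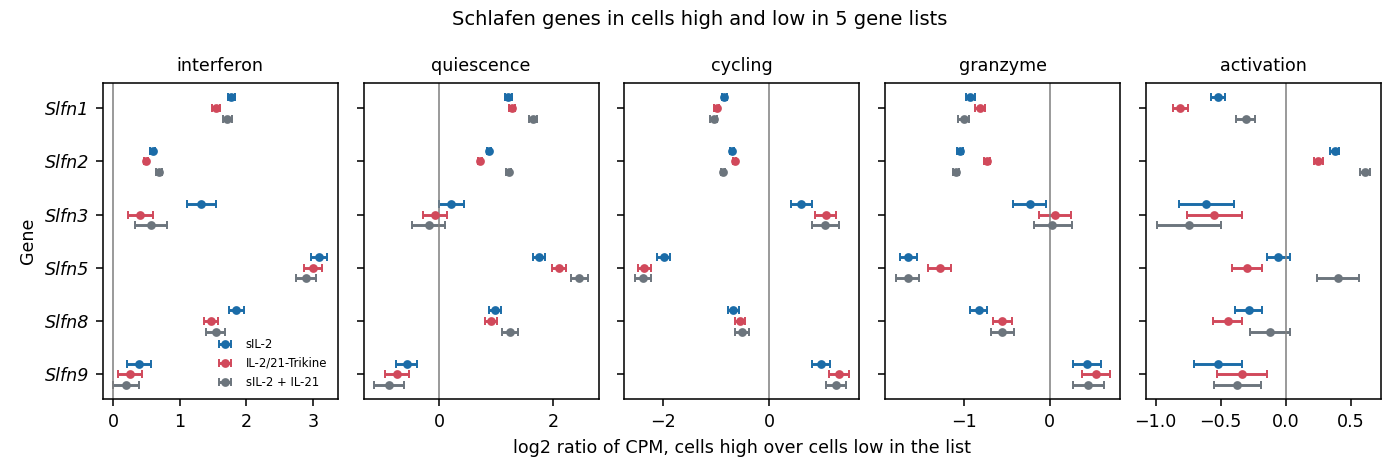
Log2 ratio of CPM between cells high and cells low in the interferon-response, quiescence, cycling, granzyme and activation lists, for the 5 members and Slfn9 in each library, with exact 95% intervals for counting error and a scale of its own in each panel. Slfn5 has the ratio furthest from 0 in the first 4 lists, and Slfn3 and Slfn9 lie right of 0 for cycling where the other members lie left.

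Granzymes C to G are cytotoxic proteases of strongly activated T cells. Cells with at least 6 UMIs of these 5 genes had less Slfn1, Slfn2, Slfn5 and Slfn8 than cells with 0. Log2 ratios were -1.05, -0.73 and -1.09 for Slfn2, -1.65, -1.29 and -1.66 for Slfn5, -0.93, -0.82 and -1.01 for Slfn1, and -0.83, -0.55 and -0.55 for Slfn8. Beside these 4 of 4 members, 13.2%, 7.39% and 10.2% of genes were lower. In cells with 0 interferon-response UMIs, Slfn8 was at -0.35, -0.32 and -0.11, under the limit in each library, which left 3 of 4. Granzyme-high cells were deeper, with medians of 23731, 18244 and 20816 UMIs against 10886, 9756 and 9480, and the part of depth was not tested. Slfn3 had log2 ratios of -0.23, 0.06 and 0.03, and Slfn9 was higher at 0.43, 0.54 and 0.45. Among the granzyme-high cells, Slfn2 stood at 207, 223 and 159 CPM, against 428, 370 and 339 in cells without these granzymes.

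Cells rich in genes of recent receptor signaling had more Slfn2 and less Slfn1 in every library. With at least 11 UMIs of 10 such activation genes against at most 1, the log2 ratio of Slfn2 was 0.38 (0.34 to 0.41), 0.25 (0.22 to 0.28) and 0.61 (0.57 to 0.65). Slfn1 had -0.52, -0.81 and -0.31, and Slfn3 -0.61, -0.55 and -0.74. Slfn8 had -0.29, -0.45 and -0.12, and Slfn5 -0.06, -0.30 and 0.40. Past the limit of 0.5, 1 of 4 compared members was lower with sIL-2 and with Trikine, beside 16.1% and 16.1% of genes, and 1 of 4 was higher with sIL-2 + IL-21, beside 7.09%. Slfn2 was under the limit with sIL-2 and Trikine, and Slfn1 with sIL-2 + IL-21. Many other genes differed as much in these cells.

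Differences between libraries were then read within cells of like state, since shares of high cells differed. Among cells with 0 interferon-response UMIs, the log2 ratio of sIL-2 over sIL-2 + IL-21 was 0.85 for Slfn1, 0.60 for Slfn2, 1.07 for Slfn5 and 0.68 for Slfn8. In high cells it was 0.91, 0.50, 1.27 and 0.99. Within cells with 0 cycling UMIs it was 0.92, 0.37, 1.34 and 1.09, and in cells with at least 3 it was 1.12, 0.54, 1.72 and 0.93. For this comparison the sign was that of the whole libraries in each of these groups of cells, while Slfn2 was under the limit in cells with 0 cycling UMIs and, at 0.499, in interferon-high cells. In granzyme-low, middle and high cells Slfn2 was at 0.34, 0.33 and 0.38. For Trikine over sIL-2 + IL-21, Slfn5 was at 0.30 (0.13 to 0.47) in cells with 0 interferon-response UMIs, 0.38 (0.25 to 0.52) with 1 or 2 and 0.41 (0.31 to 0.51) with at least 3, under the limit in each group, against 0.94 over all cells. Slfn1 was there at 0.62, 0.54 and 0.45, Slfn8 at 0.61, 0.51 and 0.54, and Slfn2 at 0.53, 0.42 and 0.33. For Trikine over sIL-2, Slfn5 kept -0.77, -0.70 and -0.86 in the same cells. Slfn2 took the opposite sign of its -0.11 in granzyme-high cells, at 0.11 (0.06 to 0.15), and in quiescence-low cells, at 0.08 (0.04 to 0.11).

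In cells with neither an interferon-response nor a cycling UMI among 2000, the differences of the 4 compared members were smaller. This set was chosen after values were seen and held 835 sIL-2, 981 Trikine and 1034 sIL-2 + IL-21 cells. Slfn5 stood at 23.0, 16.2 and 18.3 CPM there, and its log2 ratio of sIL-2 over sIL-2 + IL-21 was 0.33 (0.08 to 0.58), against 1.89 in all cells. Between Trikine and sIL-2 + IL-21 the ratio of Slfn5 was -0.18 (-0.46 to 0.11), the opposite sign of 0.94 in all cells. Slfn1 kept a log2 ratio of 0.53 (0.41 to 0.65) in sIL-2 against sIL-2 + IL-21 cells and Slfn8 of 0.58 (0.32 to 0.83), so that 2 of 4 compared members were higher by the limit in place of 4, beside 4.84% of genes. Of Trikine over sIL-2 + IL-21, 0 of 4 passed in place of 4, beside 4.07% of genes. Slfn2 stood at 334, 349 and 273 CPM, and Slfn3 at 4.24, 4.95 and 2.45 CPM from 54, 55 and 33 UMIs. In these cells the Slfn3 log2 ratio over sIL-2 + IL-21 was larger than in all cells. It was 1.02 (0.37 to 1.69) for Trikine and 0.79 (0.14 to 1.46) for sIL-2, against 0.36 for each.

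**Figure D4:**
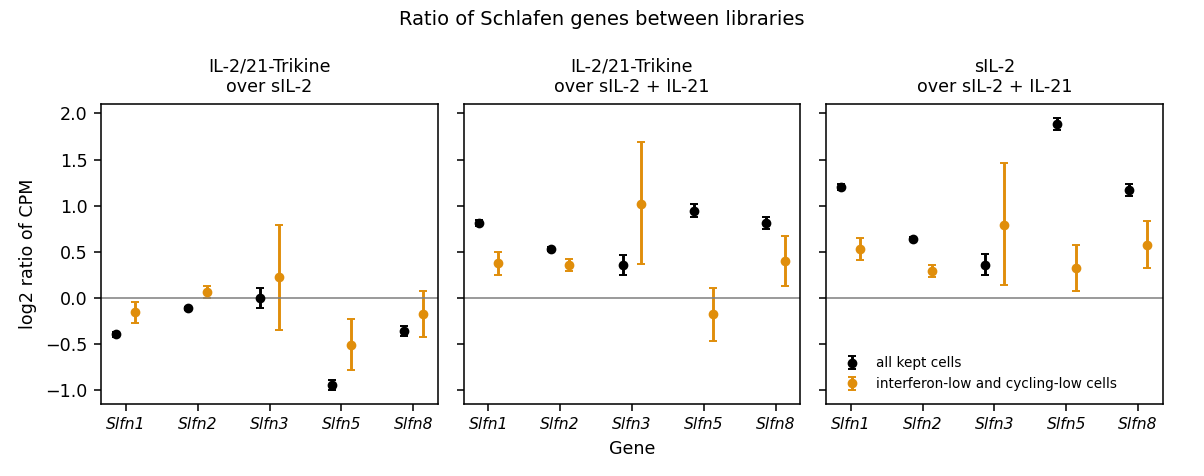
Log2 ratio of CPM between pairs of libraries for the 5 members, in all kept cells (black) and in cells with 0 interferon-response and 0 cycling UMIs (orange), with exact 95% intervals for counting error. In the ratio of sIL-2 over sIL-2 + IL-21, Slfn5 is at 1.89 in all cells and at 0.33 in the orange set.

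The genes whose pattern was most like that of a member were sought among genes with at least 50 CPM in each library, by the lowest of the 3 libraries' log2 ratios between cells with and without a UMI of the member. Slfn5 was most like Trim30a (1.47), itself among the interferon-response genes used above, then Samhd1 (1.47), Slfn1 (1.39), Ifi209 (1.28) and Ifi203 (1.25). Slfn8 had the same leading pair, Trim30a (1.05) and Samhd1 (0.92), and then Ifi209 (0.86), Ifi203 (0.85) and a gene given only by its identifier. Slfn1 was most like Samhd1 (1.01), Ifi209 (1.01), Igtp (0.92), Ifi203 (0.88) and Trim30a (0.87). The leading genes of Slfn2 were Slfn1 (0.67), the chemokine gene Ccl5 (0.52), Samhd1 (0.47), Igtp (0.46) and Ifi47 (0.45), with lower ratios than those of Slfn5. For Slfn3 they were Rrm2 (0.70), Pola1 (0.63), H1f4 (0.62), Hnrnpul1 (0.57) and Pclaf (0.57), of which Rrm2, Pola1 and Pclaf serve DNA replication and Rrm2 is in the cycling list. Only 133 to 190 cells per library had a Slfn3 UMI after thinning.

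Members were also detected together in single cells, as a description of cells that share a library. Slfn1 and Slfn5 were found in 443, 341 and 119 of the thinned sIL-2, Trikine and sIL-2 + IL-21 cells, which was 1.83, 2.00 and 2.15 times the number if detection were independent. Slfn5 and Slfn8 came to 2.14, 1.97 and 2.15 times. For Slfn1 and Slfn2 the value was 1.16 (1.10 to 1.22), 1.19 (1.13 to 1.25) and 1.33 (1.24 to 1.43). The highest value a pair can reach falls as its genes are found in more cells. Slfn2 was found in 49.7%, 48.0% and 38.8% of thinned cells, so the values of different pairs are not compared. Slfn3 and Slfn5 were found together in 43, 24 and 10 cells, or 2.78 (2.01 to 3.75), 2.00 (1.28 to 2.97) and 1.95 times (0.93 to 3.58). Slfn2 and Slfn3 had intervals that held 1 with Trikine and sIL-2 + IL-21.

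**Figure D5:**
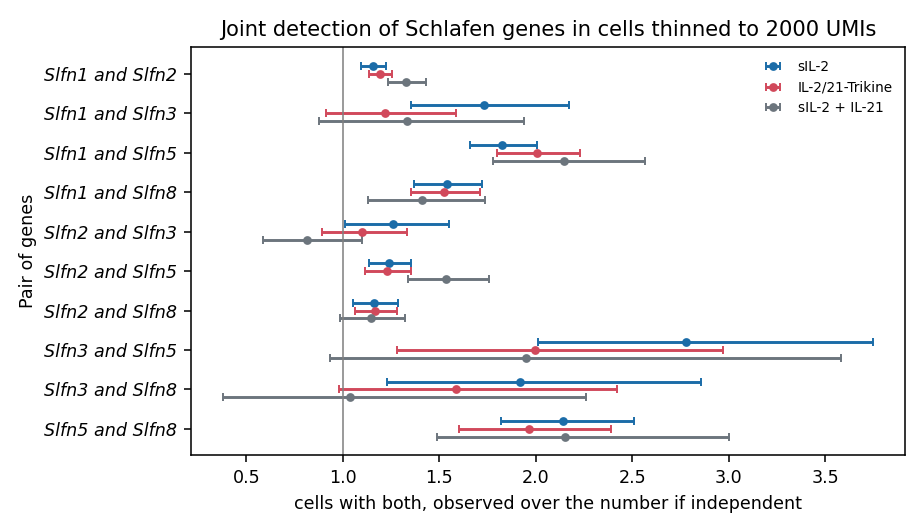
Number of thinned cells with a UMI of both genes over the number if detection were independent, for each pair of members and each library, with exact 95% intervals for counting error. Slfn5 with Slfn8 lies between 1.97 and 2.15, and Slfn1 and Slfn2 lie between 1.16 and 1.33. The highest value possible falls as a gene is found in more cells, so pairs are not compared with each other.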

How the data were processed

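The deposited values are raw UMI counts for each gene in each cell. The authors obtained them with Cell Ranger (9.0.0 in the matrix header), intronic reads included, and did not normalize them. The labels name 10x 3′ v3.1 chemistry and mm10, whereas the methods name a GRCm39 reference, so no coordinates were taken from the counts and promoters carry their own build. Cells with 500 to 120000 UMIs and at most 20% mitochondrial UMIs were kept, which left 7760 sIL-2, 13299 Trikine and 9798 sIL-2 + IL-21 cells with 130200802, 166772854 and 168041089 UMIs and medians of 12882.5, 10254 and 14055.5. No doublet caller was run, and the deepest 5% of cells were left out as an alternative.

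Counts were summed over cells, scaled to CPM and compared as log2 ratios, with exact conditional binomial intervals for ratios, exact binomial intervals for shares and exact Poisson intervals for levels. PCR copies were collapsed by UMI, and the intervals hold no spread between animals or between libraries. Cells were not clustered. Cells were placed in states by their UMIs of a list after thinning to 2000 UMIs with a fixed seed, low at or below the pooled 25th percentile and high at or above the 75th. Members and lists were chosen with earlier results of these data known. Named genes were the members, other Slfn genes by level, list members by count and the 4 furthest from a ratio of 0, and 5 like genes per member. The values of 1 gene that this rule names are not reported here. Alternatives covered limits on cells, scaling (edgeR 4.0.16 TMM and median ratios), weighting, thinning, cells with markers of other types, and states. The ratios and intervals were tested on simulated data. Python 3.11.15, numpy 2.4.6, scipy 1.17.1, pandas 2.3.3 and R 4.3.3 were used.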

Additional observations from a re-analysis of the deposited data

Results flagged for a closer look

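Slfn5 had opposite directions in cells rich in activation genes. The log2 ratio of high over low cells was 0.40 with sIL-2 + IL-21 (0.24 to 0.56) and -0.30 with Trikine (-0.41 to -0.18), with 13.5 against 17.9 and 33.5 against 27.2 CPM in low and high cells. What drew attention was that the counting intervals lay on opposite sides of 0. With 1 library each the difference was not tested. With sIL-2 the ratio was -0.06 (-0.15 to 0.03). The value of 0.40 was not kept under each setting: it was 0.0032 with every cell weighted equally and 0.13 in cells with 0 cycling UMIs, where Trikine had -0.65. In cells with 0 interferon-response UMIs the ratio was 0.50 with sIL-2 + IL-21 (0.18 to 0.82) and 0.75 with sIL-2 (0.45 to 1.06). With Trikine it was 0.28 there, with an interval that held 0 (-0.08 to 0.64).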

How the results depend on the processing

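No paired analysis was possible because each treatment had 1 library, and none could be left out. Of 147 counts of members under another setting, 135 were within 1.5 times the value given. A fall from 4 members to 3, or from 3 to 2, is within 1.5 times, so this rule does not register such a loss of 1 member. Of 735 log2 ratios of members under another setting, 342 lay outside the counting interval of the value given. For the activation list, where 1 of 4 members passed in each library, the count was 2 with sIL-2 and 3 with Trikine and with sIL-2 + IL-21 at the 10th and 90th percentiles, 2 in each library in cells with 0 interferon-response UMIs, 3 with Trikine with every cell weighted equally or in cells with 0 cycling UMIs and 2 without the 5% deepest cells, and 2 with sIL-2 + IL-21 at 5000 UMIs. An alternative in cells low in both the interferon-response and cycling lists was added after the data were seen. The count there was 0 for Trikine over sIL-2 + IL-21 and 2 in sIL-2 against sIL-2 + IL-21 cells. The Slfn5 ratio of Trikine over sIL-2 + IL-21 turned to -0.18 there. Among ratios whose value given was past the limit, this was the 1 that changed sign, and the cause was not tested. Ratios under the limit changed sign as well. For Trikine over sIL-2, Slfn3 did so in 7 of 11 alternatives and Slfn2 in 1 of 11. The Slfn5 activation ratio with Trikine did so in 1 of 8. TMM scaling moved all ratios of Trikine over sIL-2 up by 0.10. Placing cells by 1000 UMIs lowered the interferon ratios of all members, for Slfn5 to between 1.52 and 2.09, for Slfn1 to between 0.78 and 1.16, for Slfn8 to between 0.56 and 1.15, for Slfn3 to between 0.14 and 0.77 and for Slfn2 to between 0.25 and 0.37, which ended its calls.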
